A study of Rattus norvegicus with 40 samples.

Results

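Edn2, Ednrb, Lif, Il6st, Osmr, Cntf, Fgf2, Stat3 and Socs3 are 9 genes of the endothelin-2, LIF and STAT3 stress response of the retina. They were taken by gene symbol from a table of raw counts with 32883 gene rows and 40 count columns, 1 column for each retina, and all 9 were found. Of the 9, 8 passed a filter that asked for 10 or more counts in at least 4 retinas, as did 15917 genes in all. Lif did not pass, because only 1 retina reached 10 counts, and its values are given with that limit.

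The libraries are stranded mRNA libraries from single whole retinas of wild-type rat pups of both sexes. The study crossed anemia brought about by blood removal (phlebotomy-induced anemia, PIA, from a facial vein, to a hematocrit of 18%) with oxygen-induced retinopathy (OIR), in which pups breathe oxygen that cycles between 50% and 10%. By the sample titles the 8 groups are, at postnatal day 15, 4 OIR PIA retinas, 4 OIR non-anemic retinas, 4 room air PIA retinas and 4 room air non-anemic retinas. At postnatal day 20 they are 8 OIR PIA retinas, 8 OIR non-anemic retinas, 4 room air PIA retinas and 4 room air non-anemic retinas. Non-anemic pups had the neck pricked without bleeding. The count columns are named by codes (a number, a letter and a sample index), and no label used here ties a code to a group. The 9 genes are therefore described over the 40 retinas and by code block, which is the code number without its last pair of digits. Each retina is called by its block and a capital letter that follows the order of the code numbers (10G is the seventh retina of block 10). No value below belongs to a named treatment, and no blocks were tested against each other.

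The 40 codes are distinct and form 8 blocks: blocks 1 to 6 with 4 retinas each, and blocks 9 and 10 with 8 each. Total counts per retina ran from 8072840 to 24431979, with a median of 14470584, so that 3 counts, the limit that a count of 0 allows, correspond to 0.123 to 0.372 CPM (a count over the total of its column, times 1000000). Such limits cover counting error only. The sample indices in the column names fall into 4 runs of consecutive numbers, and blocks 9 and 10 are each divided evenly between the same 2 runs, which hold no other block. The 15 crystallin genes, which encode lens proteins, took a median of 0.0501% of counts, but over 5% in 4 retinas of blocks 3 and 4 and up to 30.0% in retina 4A. Retina 10G of block 10 stood apart for these genes, with the highest level of 5 of the 9, on 15550675 counts and a crystallin share of 0.0458%. All 13 marker lists for retinal and neighbouring cell types were represented, and all 5 rod markers were counted in every retina, at 12284 to 37421 CPM in sum.

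In the injured retina of mice, photoreceptors are known to make endothelin-2, a secreted peptide whose receptor EDNRB sits on Müller glia. LIF, a cytokine of the interleukin-6 family, is known to signal back through the shared receptor chain gp130 (Il6st) to STAT3. STAT3 then enters the nucleus and switches on its targets, among them its own inhibitor Socs3 and the glial filament gene Gfap, and the response is known for raising Fgf2, a survival factor for photoreceptors. A change of a gene's share of RNA in a whole retina can come from fewer cells of a type or from less RNA per cell, and these cannot be told apart here.

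Edn2, Fgf2 and Stat3 varied most closely together across retinas, and Socs3 is the feedback gene of the pathway. Sequence windows at the annotated starts of Edn2, Fgf2, Stat3 and Socs3 are therefore shown. Each is the RefSeq sequence from 250 bases before to 50 bases after the gene start, 5′ to 3′ on the strand of the gene, in the build GRCr8, which is not the build named for the counts. In Fgf2 the capitals mark the letters TTCNNNGAA, a form of the STAT element. In Stat3 and Socs3 they mark GCGTG on either strand, which with ACGTG forms the core of the hypoxia-inducible factor (HIF) element, and Edn2 has no capitals. The HIF cores of Fgf2, at 76 and 38 bases before the start, are left in lower case. The windows lie at chr5:139036326-139036625 (plus strand) for Edn2, chr2:122164204-122164503 (plus strand) for Fgf2, chr10:86363310-86363609 (minus strand) for Stat3 and chr10:103694719-103695018 (minus strand) for Socs3.
Edn2: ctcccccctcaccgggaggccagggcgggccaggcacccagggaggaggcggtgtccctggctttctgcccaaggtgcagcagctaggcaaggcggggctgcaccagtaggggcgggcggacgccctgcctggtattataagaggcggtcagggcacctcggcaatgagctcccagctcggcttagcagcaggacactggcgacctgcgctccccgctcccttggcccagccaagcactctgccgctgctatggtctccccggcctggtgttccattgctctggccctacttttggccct
Fgf2: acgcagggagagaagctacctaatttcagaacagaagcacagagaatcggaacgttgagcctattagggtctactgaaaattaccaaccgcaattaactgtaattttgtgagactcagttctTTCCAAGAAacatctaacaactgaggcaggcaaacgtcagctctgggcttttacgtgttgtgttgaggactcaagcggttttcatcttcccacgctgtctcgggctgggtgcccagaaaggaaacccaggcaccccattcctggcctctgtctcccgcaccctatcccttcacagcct
Stat3: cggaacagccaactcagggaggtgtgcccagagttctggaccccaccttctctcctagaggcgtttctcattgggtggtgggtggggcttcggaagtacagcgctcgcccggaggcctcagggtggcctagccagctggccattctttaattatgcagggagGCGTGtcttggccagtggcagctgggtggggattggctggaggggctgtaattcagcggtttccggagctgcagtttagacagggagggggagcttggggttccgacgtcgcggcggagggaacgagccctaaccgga
Socs3: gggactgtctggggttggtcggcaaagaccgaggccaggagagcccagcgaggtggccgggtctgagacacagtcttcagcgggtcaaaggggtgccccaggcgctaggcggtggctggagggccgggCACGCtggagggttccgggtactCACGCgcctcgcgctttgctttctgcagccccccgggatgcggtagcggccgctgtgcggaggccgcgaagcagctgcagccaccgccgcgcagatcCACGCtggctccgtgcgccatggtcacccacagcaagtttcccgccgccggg
The table held a window for 8 of the 9 genes, all but Lif. The STAT letters were in 1 of these 8, in Fgf2 as TTCCAAGAA at 128 bases before the start, and in 8.87% of all 33469 windows of this length. The HIF core letters were in 5 of the 8, namely Ednrb, Osmr, Fgf2, Stat3 and Socs3, and in 41.6% of all windows. The windows of Edn2, Il6st and Cntf held neither set of letters. A match is a run of letters and says nothing of binding. An annotated start need not be where transcription begins. In Edn2 the 50 bases after it open with atg, the letters of a start codon. In Il6st and Socs3 these letters follow shortly after the start. The windows of these genes may thus lie outside the promoter, and a match or its absence there says nothing of the promoter.

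Edn2, the ligand, was at or near the detection limit in many retinas and reached 10 counts in 15. Its level was 0 CPM at the lowest, 0.294 at the median and 7.07 at the highest, in retina 10G, with 2.84 in the next, 10B. Over all retinas it had 472 counts, of which 133 were in block 9, 244 in block 10 and 95 in the other 6 blocks together. Most Edn2 counts thus came from the blocks of 8. Edn2 was not counted in 9 retinas, all in the blocks of 4, and 17 retinas were at or under 3 counts. In block 9 it ran from 0.281 to 1.86 CPM with a median of 0.944, and in block 10 from 0.432 to 7.07 with a median of 0.961. The 4 retinas of block 1 had 0, 0, 0 and 0.0687 CPM, and those of block 2 had 0, 0.447, 0 and 0. Both blocks were thus nearly without Edn2 counts. Block 3 had 0.186, 0.0821, 0.0447 and 0.495 CPM, and block 4 had 0.0478, 1.64, 0 and 0.230. Block 5 had 0, 0.124, 0.143 and 0.0742 CPM, and block 6 had 1.21, 0.0982, 0.307 and 0. Retinas 4B of block 4 and 6A of block 6 were above 1 CPM although their blocks' medians were 0.139 and 0.203. The 16 retinas of blocks 9 and 10 (median 0.961 CPM) overlapped the other 24 (median 0.0714), and 5 of the 16 exceeded the highest of the 24, at 1.64. The coefficient of variation (CV) of Edn2 was 168%, against 30.4% from counting error alone.

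Ednrb, the endothelin receptor of Müller glia, was counted in every retina, with high levels in some retinas of several blocks. It ran from 10.7 CPM in retina 4A to 55.4 in 9A, with a median of 22.5, and its CV was 41.4% against 5.14% from counting. Some retinas of 4 blocks stood high. They were at 51.1 CPM in 3A of block 3, 47.1 in 5B of block 5 and 46.0 in 6C of block 6. In block 9, retina 9A had 55.4 CPM, 9H 42.3 and 9B 36.6. The block medians lay between 16.8 CPM (block 4) and 26.3 CPM (block 9). Most of the spread of Ednrb was therefore among retinas of the same block, and differences between block means held 22.6% of its variance.

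Of the cytokines, Lif was close to the limit of detection and Cntf was not. Lif had a median of 3 counts per retina, none in 7 retinas and at most 15 in 1, and ran from 0 CPM through a median of 0.218 to 0.698 in retina 3A. Its CV was 76.8%, against 56.7% from counting error alone, and 21 retinas were at or under 3 counts. The Lif level of a single retina is therefore imprecise at this depth. Cntf, ciliary neurotrophic factor, a survival factor that signals through gp130, ran from 5.93 CPM in retina 4A through a median of 10.1 to 20.5 in 9A. Its block medians ranged from 7.90 CPM in block 4 to 12.6 in block 9, and block means held 22.5% of its variance. Retina 9A was highest for both Cntf and Ednrb, and retina 4A lowest for both. Crystallin genes took 30.0% of the counts of 4A, where other genes share a smaller part of the counts.

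Il6st, the shared signalling chain of the receptors, varied least of the 9 genes, with a CV of 15.4% against 2.38% from counting. It ran from 62.8 CPM in retina 4A through a median of 116.6 to 152.8 in 10G. Its medians were 131 and 128 CPM in blocks 9 and 10, against 91.5 to 120 in the other blocks, and 7 of the 16 retinas of blocks 9 and 10 exceeded the highest of the other 24, at 130.5. Osmr, the oncostatin M receptor, was far more variable, from 0.519 CPM in retina 1A through a median of 2.49 to 7.59 in 10G, with a CV of 54.5% against 16.2%. Osmr overlapped widely between blocks, with medians from 1.19 CPM in block 1 to 3.12 in block 10.

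Stat3, the transcription factor at the centre of the response, separated blocks 9 and 10 from the rest almost without overlap. It ran from 93.3 to 120 CPM in block 9, with a median of 108.1, and from 83.8 to 150.6 in block 10, with a median of 104.8. Of these 16 retinas, 15 exceeded the highest of the other 24, which was 91.0 CPM. The exception was retina 10A, at 83.8 CPM. The levels of the other blocks overlapped each other. Block 1 had 73.4, 68.7, 68.5 and 65.9 CPM, and block 2 had 66.4, 86.5, 68.2 and 74.3. Block 3 had 88.4, 48.7, 77.3 and 73.9 CPM, and block 4 had 47.6, 87.1, 69.3 and 73.1. Block 5 had 74.3, 84.2, 83.2 and 79.6 CPM, and block 6 had 84.0, 78.3, 91.0 and 75.1. The lowest levels, 47.6 CPM in 4A and 48.7 in 3B, were in the retinas with the largest crystallin shares, 30.0% and 26.5%, where other genes share a smaller part of the counts. Between-block differences held 66.2% of the variance of Stat3, and 67.4% with TMM library sizes, which allow for such a share.

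Socs3, the inhibitor that STAT3 induces, had a wider range on fewer counts and did not separate the blocks. It ran from 0.0807 CPM in retina 2A through a median of 0.943 to 5.76 in 9H, with 10G next at 3.99. Its CV was 102.5% against 26.0% from counting. In block 9 it ran from 1.02 to 5.76 CPM, and all retinas but 9H lay at or below 1.53. In block 10 it ran from 0.237 to 3.99, so that this block spanned much of the range of the series. Block medians were 1.30 and 1.11 CPM in blocks 9 and 10, against 0.246 to 0.901 in the others.

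Fgf2, the growth factor, was higher in blocks 9 and 10 than in most other retinas, with overlap. It ran from 0.985 to 2.94 CPM in block 9, with a median of 2.00, and from 0.931 to 7.59 in block 10, with a median of 1.70. The 24 other retinas ran from 0.132 to 2.72 CPM, with a median of 0.689, and 4 of the 16 exceeded their highest. Block 6 was the nearest of the other blocks, with 2.72, 1.77, 0.844 and 0.718 CPM and a median of 1.31. Retinas 6A and 4B, which were high for Edn2 within their blocks, were also highest for Fgf2 within them, at 2.72 and 1.64 CPM. The CV of Fgf2 was 94.5%, against 21.9% from counting. Nudt6 overlaps Fgf2 in the RefSeq annotation of GRCr8, and whether the counting used strand is not given in the sources used here. Nudt6 ran from 2.91 to 6.88 CPM and had a Spearman rho of −0.20 with Fgf2 and −0.30 with Edn2.

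**Figure D1:**
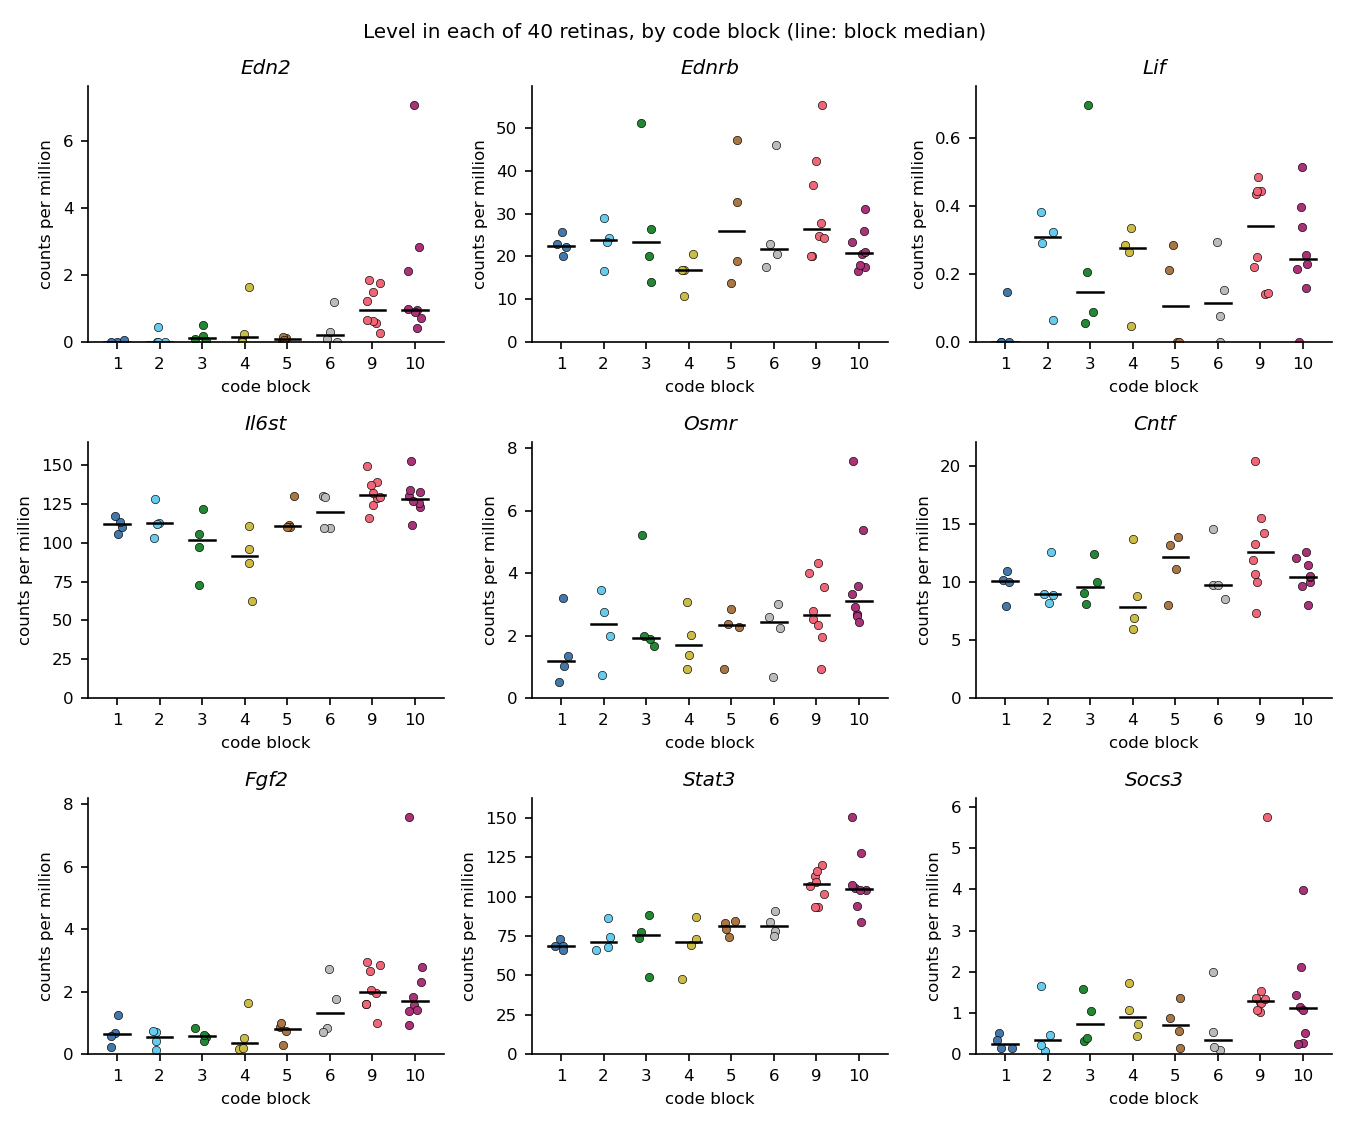
Level of each of the 9 genes in CPM (vertical axis, from 0) in each of 40 retinas, by code block (horizontal axis), where each point is a retina and each line a block median. Stat3 in blocks 9 and 10 lies above 91.0 CPM in 15 of 16 retinas, Edn2 has its highest value of 7.07 CPM in retina 10G of block 10, and Lif stays under 0.7 CPM throughout.

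Between-block differences held at least 50% of the variance on the log2(CPM + 0.5) scale for 4 of the 8 genes that passed the filter, against 23.3% of all 15917 genes. The shares were 66.2% for Stat3, 58.2% for Il6st, 57.4% for Edn2 and 57.4% for Fgf2. Of the 15 retinas in which Edn2 reached 10 counts, 13 were in blocks 9 and 10, so Edn2 passed the filter through the blocks where it was high, and the count of 4 is a description only. It was 2 with a filter of 1 CPM in 20 retinas and 0 without blocks 9 and 10. The median gene had 34.6%, where 17.9% is what 8 blocks of these sizes give on average without any difference between them. The highest block median was at least 2-fold the lowest, on the same scale, for 4 of the 8 (Edn2, Osmr, Fgf2 and Socs3), against 13.8% of all genes. Edn2 is again among the 4, so this count too is a description only. The SD of log2(CPM + 0.5) was 0.95 for Edn2. Its median was 0.52 over the 9 genes, Edn2 and Lif included, against 0.26 over all genes that passed the filter, which is likewise a description. Part of this spread is the counting error given above for each gene. Blocks 9 and 10 also differ from the others in their index runs, and blocks, index runs and groups cannot be told apart. Within block 9, Stat3 had medians of 111.8 CPM in the 4 retinas of the run of lower indices and 105.3 CPM in the 4 of the other run, and within block 10 medians of 117.7 and 98.9 CPM in the same order. Edn2 had medians of 1.36 and 0.597 CPM in block 9 and 1.54 and 0.832 CPM in block 10, and Fgf2 had 2.36 and 1.60 CPM in block 9 and 2.10 and 1.70 CPM in block 10. Socs3 had 1.35 and 1.25 CPM in block 9 and 1.77 and 0.666 CPM in block 10. The medians of these 4 genes were thus higher in the run of lower indices in both blocks, and the part of the runs in the levels was not tested.

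Across the 40 retinas no pair of the 9 genes had a negative Pearson's r. Of the 36 pairs, 26 passed a two-sided permutation test of r on log2(CPM + 0.5) with an adjusted p under 0.05 (Benjamini-Hochberg over the 36, with 100000 permutations), and 27 passed for Spearman's rho. Blocks carry unknown groups, so each relation was recomputed on deviations from block means, with permutation within blocks. Then 16 pairs passed, all of them among the 26, and r ran from −0.15 to 0.80. Positive correlation was common in these libraries: of all pairs of the 15917 genes, 30.0% had an r of at least 0.34 over all retinas, the lowest r of a pair that passed, against 23 of the 28 pairs of the 8 genes that passed the filter. On deviations from block means, 27.7% of all pairs had an r of at least 0.39, again the lowest of a pair that passed, against 17 of the 28. These shares are descriptions with no test, and they include Edn2, which passed the filter through blocks 9 and 10. The p-values measure the spread between these retinas only, and those over all retinas also take in differences between blocks. The labels used here do not tie retinas to litters. Pairs with Lif passed in 3 of 8 cases over all retinas and in 0 within blocks, where 0 also had an unadjusted permutation p under 0.05 by r or by rho.

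**Figure D2:**
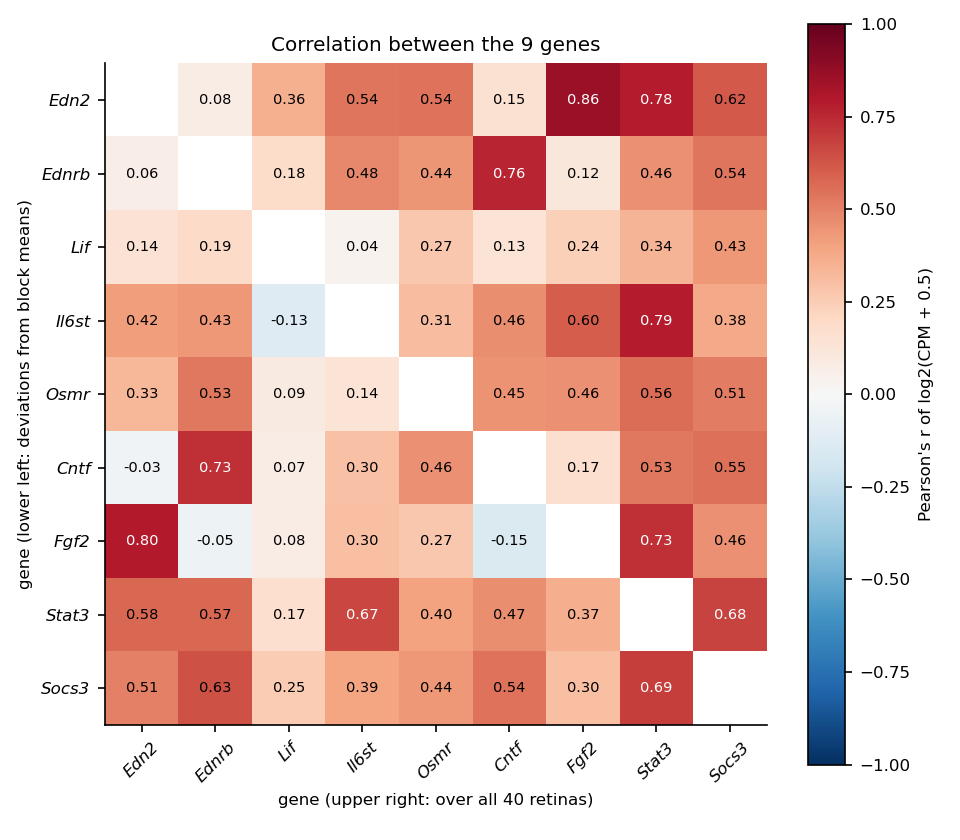
Pearson's r of log2(CPM + 0.5) for each pair of the 9 genes, with r over all 40 retinas in the upper right and r of deviations from block means in the lower left; colour runs from −1 (blue) to 1 (red). Edn2 and Fgf2 keep an r of 0.80 within blocks, while Edn2 and Ednrb are at 0.08 over all retinas and 0.06 within blocks.

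Edn2 and Fgf2 were the pair most closely related, at an r of 0.86 and a rho of 0.82. The raw permutation p was 1e-05 for both, the smallest the permutations can give, and the adjusted p was 6.0e-05 for r and 5.1e-05 for rho. Without 10G and 10B, the retinas farthest from the median of Edn2, r was 0.82. Within blocks r was 0.80 (raw p 3.0e-05, adjusted p 0.00036). In block 9, with 8 retinas, r was 0.93 (adjusted p 0.021 by an exact permutation test). In block 10, also with 8, it was 0.90 and did not pass (adjusted p 0.054 by the same exact test). Over the 24 retinas of the other blocks r was 0.60 (adjusted p 0.019).

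Edn2 and Stat3 had an r of 0.78 and a rho of 0.83, with the same smallest raw p of 1e-05 and adjusted p of 6.0e-05 and 5.1e-05. Without 10G and 10B r was 0.74. Within blocks r was lower, at 0.58 (raw p 0.0015, adjusted p 0.0066), and its value varied by block. It was 0.87 in block 10, −0.04 in block 9 and 0.44 over the other 24 retinas, where it did not pass (adjusted p 0.082). In block 9 all 8 retinas had Stat3 at 93.3 CPM or more, whatever their Edn2 level. Whether the blocks differ in this relation was not tested.

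Edn2 and Socs3 had an r of 0.62 and a rho of 0.65 (raw p 3.0e-05 and 2.0e-05, adjusted p 0.00015 and 8.0e-05), and r was 0.55 without 10G and 10B. Within blocks r was 0.51 (raw p 0.0050, adjusted p 0.016), from 0.83 in block 10 to −0.24 in block 9. Stat3 and Socs3 had an r of 0.68 and a rho of 0.69, each with a raw p of 1e-05, and this relation was as strong within blocks, at 0.69 (adjusted p 0.00018). It was 0.95 in block 10 and 0.42 in block 9, and 0.65 without 10G and 4A, the retinas farthest from the median of Stat3. Over the 24 retinas outside blocks 9 and 10 it was 0.48 and did not pass (adjusted p 0.0505). Fgf2 and Stat3 had an r of 0.73, but within blocks r was 0.37, which did not pass (adjusted p 0.10). Fgf2 and Socs3 likewise passed over all retinas (r 0.46, adjusted p 0.0055) and not within blocks (r 0.30, adjusted p 0.19).

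**Figure D3:**
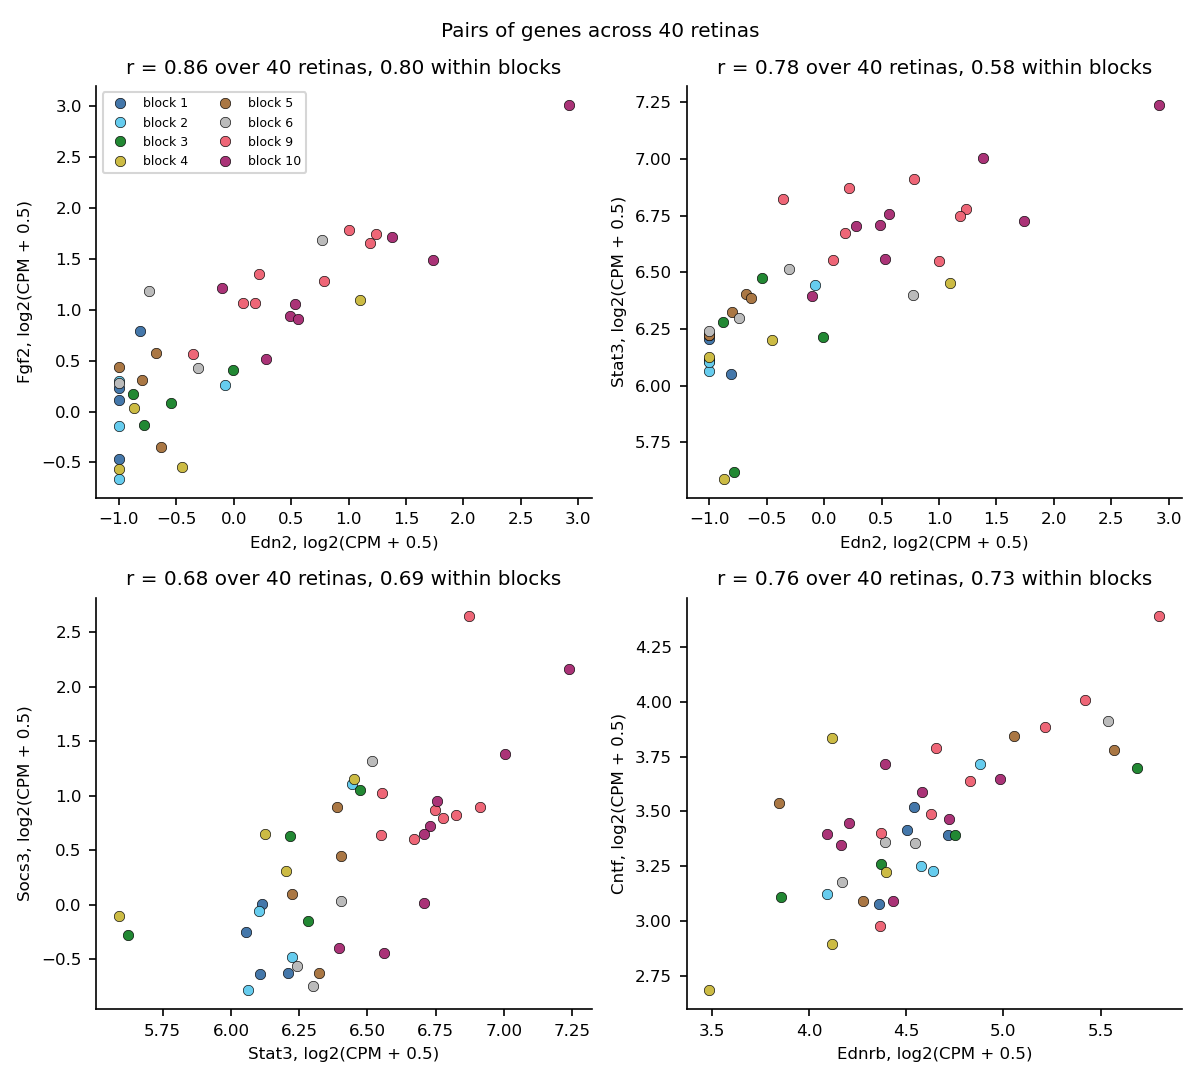
Log2(CPM + 0.5) of 1 gene against another in 40 retinas, for Edn2 and Fgf2, Edn2 and Stat3, Stat3 and Socs3, and Ednrb and Cntf; each point is a retina, coloured by code block. The retina at the upper right of both Edn2 panels is 10G, and Edn2 with Fgf2 has an r of 0.86, or 0.82 without 10G and 10B.

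The receptor chain Il6st went with Stat3 (r 0.79 and rho 0.73, each with a raw p of 1e-05; within blocks 0.67, adjusted p 0.0098). Retinas 4A and 3B, low for both genes and rich in crystallin counts, were the farthest from the median of Il6st, and r was 0.67 without them. Il6st and Edn2 had an r of 0.54 (adjusted p 0.0012) and of 0.42 within blocks, where the adjusted p was 0.051. Osmr passed with Edn2 over all retinas (r 0.54, adjusted p 0.00099) and not within blocks (r 0.33, adjusted p 0.082). Its r with Edn2 was 0.83 in block 10 and −0.67 in block 9.

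Ednrb and Cntf were closely related to each other. Their r was 0.76 and rho 0.67, with a raw p of 1e-05 for r and 2.0e-05 for rho, and r was 0.72 without 9A and 3A. Within blocks r was 0.73 (adjusted p 0.00018), with 0.92 in block 9 and 0.40 in block 10. No relation with Edn2 was detected for either gene over all retinas, where r was 0.08 for Ednrb (adjusted p 0.66) and 0.15 for Cntf (adjusted p 0.40). In block 9 r with Edn2 was −0.72 for Ednrb and −0.64 for Cntf, and in block 10 it was 0.16 and 0.15. Whether the blocks differ in these relations was not tested. Both were related to Socs3, with r of 0.54 and 0.55 over all retinas (adjusted p 0.00099 and 0.00086) and 0.63 and 0.54 within blocks (adjusted p 0.00063 and 0.0031). Both were also related to Stat3 within blocks, at 0.57 for Ednrb (adjusted p 0.00086) and 0.47 for Cntf (adjusted p 0.016). Within blocks, Stat3 and Socs3 thus passed with Edn2, Ednrb and Cntf but not with Fgf2. Osmr passed there with Ednrb (r 0.53, adjusted permutation p 0.0049) and with Cntf (r 0.46, adjusted permutation p 0.017). Il6st passed there with Ednrb (r 0.43, adjusted permutation p 0.042) and not with Cntf (r 0.30, adjusted permutation p 0.23). Over all retinas Fgf2 had an r of 0.12 with Ednrb and 0.17 with Cntf (adjusted p 0.50 and 0.34).

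Set against all genes, Stat3 and Fgf2 had the highest rho with Edn2 of the 15916 other genes that passed the filter. Stat3 came first at 0.83 and Fgf2 second at 0.82, but without blocks 9 and 10 they stood in places 22 and 317. Il6st was in place 44 (0.66), Socs3 in place 55 (0.65) and Osmr in place 382 (0.53), while Cntf (0.28) and Ednrb (0.23) lay further down. A rho of 0.5 or more was reached by 5 of the 7 genes, against 3.26% of all genes, and a rho of −0.5 or less by none of the 7, against 4.89% of all genes. On deviations from block means, 3 of the 7 (Fgf2 at 0.69, Stat3 at 0.51 and Socs3 at 0.50) reached 0.5, against 0.126% of all genes. On deviations from the means of block and index run, 1 of the 7 reached it. These shares are descriptions over genes of the same libraries, with no test. Lif, which did not pass the filter, had a rho of 0.40 with Edn2.

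**Figure D4:**
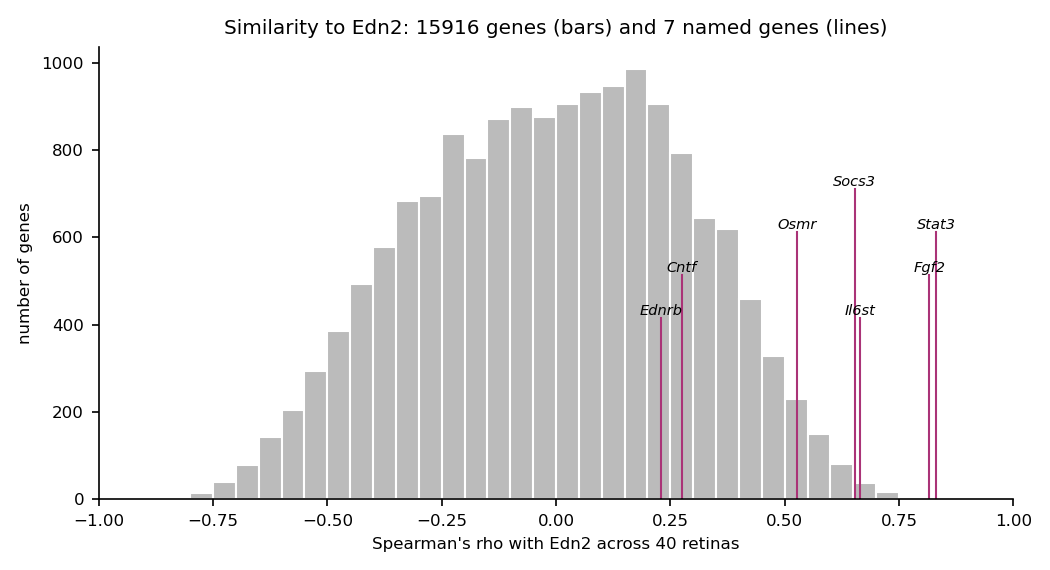
Number of genes (vertical axis) by Spearman's rho with Edn2 across 40 retinas (horizontal axis) for 15916 genes, with lines at 7 of the genes described here; the heights of the lines carry no value. Stat3 at 0.83 and Fgf2 at 0.82 lie at the right end, and Ednrb at 0.23 and Cntf at 0.28 lie among the bulk of genes.

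The other genes among the 10 most like Edn2 were Rps6ka2 (rho 0.79), a kinase downstream of MAP kinase signalling, Gbp2 (0.78), an interferon-induced GTPase, and Uba7 (0.75), the activating enzyme for the ubiquitin-like protein ISG15. They were followed by AABR07034648.1 (0.75), Naa35 (0.74), Tnip2 (0.74), Rnf213 (0.74) and Psmb8 (0.74), an interferon-inducible subunit of the proteasome. Among the lowest were Ppp1r1a (−0.82), Marcksl1 (−0.81), RGD1559909 (−0.79) and Exosc6 (−0.79). Of the genes most like Edn2 on deviations from block means, Rps6ka2 was first (0.72), followed by Fgf2 (0.69), Ahr (0.64), the aryl hydrocarbon receptor, Lad1 (0.61) and Kcng4 (0.60). Rps6ka2 and Fgf2 thus stood near the top both over all retinas and within blocks, whereas Uba7 had a rho of 0.75 over all retinas and 0.31 within blocks.

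The genes most like each of the others were different ones. Ednrb was closest to Cd38 (rho 0.85), Arhgef3 (0.84) and Fbln5 (0.83), and Cntf to Gas2 (0.84), Oat (0.79), ornithine aminotransferase, and Atp6v0e1 (0.79). Stat3 was closest to Nab2 (0.87), Slfn4 (0.86) and Gbp2 (0.86). Socs3 was closest to Litaf (0.83), Serping1 (0.83), which encodes an inhibitor of complement, and Bcl3 (0.83). Fgf2 was closest to Edn2 itself (0.82), Tnip2 (0.81) and Rps6ka2 (0.80), and Il6st to Ecpas (0.82), Ahr (0.79) and Cdc73 (0.76). Osmr was closest to Col17a1 (0.69), Elf4 (0.67) and AC128848.1 (0.66). For Lif, at few counts, the highest were Ifi27 (0.56), AABR07045322.1 (0.55) and Ccn2 (0.55). Each rho is over 40 retinas.

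Other genes of the same pathways were set beside all genes, of which 3.26% had a rho of 0.5 or more with Edn2 and 4.89% one of −0.5 or less. The lists are short, and no test was made. Of 6 further endothelin genes (the ligands Edn1 and Edn3, the receptor Ednra and the processing enzymes Ece1, Ece2 and Ecel1), 0 had a rho of 0.5 or more, and their median was 0.25 against 0.0043 over all genes. Of 8 interleukin-6 family ligands and receptors that passed the filter, 1 reached it, Il6r (0.51), which ran from 4.78 to 16.8 CPM. The LIF receptor Lifr, from 28.6 to 83.2 CPM, had a rho of 0.45. Il6 and Osm did not pass the filter. Among the genes of the JAK kinases, other STATs and their inhibitors, Socs1 had a rho of −0.61 (0.187 to 2.85 CPM). Socs1 and Socs3, both inhibitors of JAK kinases, thus had opposite signs with Edn2 over all retinas. On deviations from block means rho was −0.21 for Socs1 and 0.50 for Socs3, and 63.0% of the variance of Socs1 was between blocks. Of 9 other FGF ligands, receptors and feedback genes, 0 had a rho past 0.5 in either direction, with a median of −0.07.

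Of 19 STAT3-responsive and gliosis genes, 7 had a rho of 0.5 or more, against 3.26% of all genes, and none −0.5 or less, against 4.89%. Within blocks 3 reached 0.5, against 0.126%. Stat3 and Socs3 are 2 of these 7 and 2 of these 3, and the list was chosen with earlier results of these data known. The others were Bcl3, a nuclear regulator of NF-kB (rho 0.72, and 0.53 within blocks), C3, complement component C3 (0.70, and 0.44), Cp, ceruloplasmin (0.65, and 0.38), Gfap (0.65, and 0.497) and Icam1, an adhesion molecule (0.58, and 0.18). Gfap ran from 10.5 CPM through a median of 25.8 to 207.04 CPM in retina 3A. Cebpb (−0.49), Vim (−0.10), Nes (0.06) and Timp1 (−0.02) were among the 12 that did not reach 0.5 in size.

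Some cell type lists moved with these genes. The astrocyte list (Gfap, Pax2 and Pdgfra, all 3 found), whose sum of 66.8 to 154.2 CPM in blocks 9 and 10 compared with 28.4 to 265 CPM in the other blocks, had a rho of 0.70 with Edn2, 0.72 with Stat3 and 0.74 with Socs3. Gfap belongs to both that list and the gliosis list, and Pax2 had a rho of −0.17 with Edn2. The microglia list (4 of 4 found; 47.6 to 135 CPM in blocks 9 and 10, against 34.8 to 92.9 CPM) had a rho of 0.41 with Edn2 and 0.51 with Socs3. The rod list (5 of 5 found; 26383 to 37421 CPM in blocks 9 and 10, against 12284 to 35324 CPM) had a rho of 0.64 with Fgf2 and 0.38 with Edn2. The pericyte list (3 of 3 found; 101 to 226.5 CPM in blocks 9 and 10, against 63.1 to 168 CPM) had a rho of 0.60 with Stat3 and 0.57 with Ednrb. The Müller glia list (5 of 5 found; 2983 to 3932 CPM in blocks 9 and 10, against 1619 to 3842 CPM) had a rho of −0.13 with Edn2 and 0.03 with Stat3. The cone list (4 of 4 found; 345 to 639 CPM in blocks 9 and 10, against 233 to 583 CPM) had a rho of 0.41 with Edn2 and 0.50 with Fgf2. The bipolar cell list (3 of 3 found; 523 to 895 CPM in blocks 9 and 10, against 599 to 1039 CPM) had a rho of −0.40 with Edn2, −0.50 with Stat3 and −0.53 with Socs3. Ednrb had a rho of 0.16 with the Müller glia list. The part of these cell types in the relations was not tested. The crystallin share had a rho of −0.30 with Edn2, −0.37 with Fgf2 and −0.44 with Il6st. Without the 4 retinas over 5% crystallin, r was 0.86 for Edn2 and Fgf2 and 0.85 for Edn2 and Stat3. Total counts had a rho of 0.22 with Edn2, 0.42 with Socs3 and 0.40 with Lif.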

How the data were processed

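The measurements are raw gene-level counts, deposited by the authors as a single table for 40 single rat retinas. Per the submitters' processing notes, HISAT2 and edgeR were used with the build Rnor_6.0; which program counted reads, and whether it used strand, is not given in the sources used here. From the deposited counts, CPM was computed as each count over its column total (8072840 to 24431979 counts), and log2(CPM + 0.5) was used throughout. Genes were compared with themselves across retinas, not with each other in level, since gene lengths were not used.

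The 9 genes, the gene lists and the marker lists were chosen with earlier results of these data known. Of the genes on the lists, those with a rho of 0.5 or more in size with Edn2 are named, with the 10 highest, the 5 lowest and the 5 highest within blocks over all genes, and the 3 most like each other gene; Lifr, Pax2, Cebpb, Vim, Nes and Timp1 were named after their values were seen. A few genes that this rule names are not reported here. Retinas were taken by code block, and no column was given to a treatment group. Counting CVs are those of a Poisson count. Permutation tests (100000, two-sided; exact over all orders within block 9 or 10) used numpy 2.4.6 and scipy 1.17.1 under Python 3.11.15. Alternative library sizes were TMM from edgeR 4.0.16 and median-of-ratios size factors from DESeq2 1.42.0 under R 4.3.3. The scripts were tested on simulated data. Comparisons between anemic and non-anemic, OIR and room air, or the ages were not analysed here.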

Additional observations from a re-analysis of the deposited data

Results flagged for a closer look

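Within each code block, each of the 9 genes was searched for a retina far from the others of its block, by the gap to its nearest neighbour over the range of the block (Dixon's 95% limit). Of 72 combinations of gene and block, 6 had such a retina. The limit is set for 1 in 20, or 3.6, with normally distributed values. CPM from few counts are not such values, so nothing is concluded from 6 against 3.6.

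In block 1, Edn2 was counted only in retina 1D (0.0687 CPM) and Lif only in 1A (0.148 CPM). In block 2, Edn2 was counted only in 2B (0.447 CPM). These rest on 1 count, 2 counts and 7 counts. The other retinas of the block were at 0 CPM in each case, so any count at all would have been flagged.

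In block 3, Osmr was at 5.21 CPM in retina 3A, against 1.68 to 1.98 CPM in the other 3 retinas. Retina 3A also held the highest Lif level of the series and a crystallin share of 10.1%. In block 5, Il6st was at 130 CPM in 5B, against 110 to 112 CPM in the other 3. In block 9, Socs3 was at 5.76 CPM in 9H, against 1.02 to 1.53 CPM in the other 7 retinas. Stat3 in 9H was 116.6 CPM, within the range of its block.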

How the results depend on the processing

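All 26 correlations past the threshold kept their sign under TMM library sizes, median-of-ratios size factors, a pseudocount of 0.1 or 2, totals without crystallin genes, leaving out any 1 block, and leaving out retina 10G. Under these settings 20 to 26 of them stayed past it, and without 10G only Il6st with Socs3 was lost (r 0.32, adjusted permutation p 0.069).

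The count of pairs past the threshold was 26 over all retinas, 16 on deviations from block means, 15 on deviations from the means of block and index run, 10 without blocks 9 and 10, 2 within block 9 and 1 within block 10, where the settings without some blocks or within 1 block have fewer retinas. Within block 9, with 8 retinas, r turned negative for Edn2 with Osmr (−0.67), Stat3 (−0.039) and Socs3 (−0.24), Ednrb with Il6st (−0.030), Lif with Stat3 (−0.58) and Socs3 (−0.24), Il6st with Cntf (−0.0086), and Fgf2 with Osmr (−0.65), Stat3 (−0.18) and Socs3 (−0.0042); the cause was not tested. Within block 10, Edn2 with Fgf2 (0.90), Stat3 (0.87) and Socs3 (0.83) and Ednrb with Cntf (0.40) did not pass, nor did Stat3 with Socs3 within block 9 (0.42). Without blocks 9 and 10, Edn2 with Stat3 (0.44) and Stat3 with Socs3 (0.48) did not pass, and Edn2 with Fgf2 stood at 0.60.

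The share of genes with a rho of 0.5 or more with Edn2, 3.26% over all retinas, was 5.44% without block 4, 5.32% without the 4 retinas over 5% crystallin, 2.04% without block 10, 0.743% without blocks 9 and 10, 0.126% on deviations from block means and 0.113% on those from block and index run. For the genes described here it was 5 over all retinas, 3 on deviations from block means, 2 without blocks 9 and 10, and 1 on deviations from block and index run. The number with 50% or more of the variance between blocks was 4, but 2 with a filter of 1 CPM in 20 retinas, under which fewer genes were kept, and 0 without blocks 9 and 10. Without blocks 9 and 10, Stat3 stood in place 22 and Fgf2 in place 317 by rho with Edn2. The settings that leave out retina 10G, crystallin-rich retinas, crystallin counts, or blocks 9 and 10 together, and the one by index run, were chosen after seeing the data.

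The log2 ratio of TMM library size to column total was −0.48 to −0.32 in the 3 retinas with the largest crystallin shares and −0.08 to 0.09 in the others.

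No paired analysis was possible because the column codes carry no replicate numbers. Depth limits Edn2 and Lif, with 17 and 21 retinas at or under 3 counts.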

Other observations

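Edn3, which encodes endothelin-3, the ligand that shares the receptor EDNRB, was spread more widely than the other endothelin genes. It ran from 0.205 CPM in retina 3B through a median of 0.941 to 101 CPM in 9A, and no retina lay between 2.19 and 15.4 CPM, with 27 retinas below and 13 above.

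The values above that gap came from 6 of the 8 blocks. In block 3 they were 24.3 CPM in 3D and 38.8 in 3A, in block 4 17.1 in 4B, in block 5 30.1 in 5C and 94.0 in 5B, and in block 6 77.7 in 6C. In block 9 they were 34.0 CPM in 9E, 55.2 in 9B, 84.3 in 9H and 101 in 9A, and in block 10 15.4 in 10D, 21.8 in 10E and 34.8 in 10H. Blocks 1 and 2 held none, with Edn3 at 0.223 to 1.72 CPM.

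The retinas with the 5 highest Edn3 levels had Ednrb at 55.4 CPM (9A), 47.1 (5B), 42.3 (9H), 46.0 (6C) and 36.6 (9B), where the median over all retinas was 22.5 CPM. Retina 10G, highest for Edn2, had Edn3 at 0.707 CPM. Edn3 had a rho of 0.30 with Edn2 over all retinas and −0.02 on deviations from block means. These values are a description chosen after they were seen, and no test was made.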
